A study of Homo sapiens with 8 samples.

Results

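The kynurenine pathway breaks down most of the tryptophan that cells do not build into protein. IDO1 or TDO2 open the tryptophan ring, and AFMID removes a formyl group to give kynurenine. KMO hydroxylates kynurenine, and the aminotransferases KYAT1, KYAT3 and AADAT turn it into kynurenic acid. KYNU (kynureninase) cuts the side chain of kynurenine and of its hydroxylated form. After that cut, HAAO and QPRT carry the hydroxylated branch on to a precursor of NAD. In blood cells the pathway is known from monocytes, macrophages and dendritic cells, where interferon gamma induces IDO1, and kynurenine and its products are ligands of the aryl hydrocarbon receptor.

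The 10 genes named here were taken by exact match of symbol from a table of 23562 gene rows. Of the 10, 8 had a row: KYNU, KMO, TDO2, HAAO, AFMID, QPRT, KYAT1 and KYAT3. IDO1 and AADAT had none in the table and are not analysed here. The genes were chosen by name from the pathway, with the CPM of sgControl against sgCEBPD in these same libraries already known, so their values in sgControl against sgCEBPD are a description and carry no test of their own.

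The cells were OCI-AML5, a human line established from acute myeloid leukemia. They were transduced with lentiCRISPRv2, a lentiviral vector that carries Cas9 and a guide RNA, so Cas9 was present in both groups. The 4 sgControl libraries held the non-specific guides that the labels number 1 to 4, and the 4 sgCEBPD libraries held the guides numbered 1 to 4 against CEBPD, the gene of the transcription factor C/EBP delta, with 1 guide per library. Each library thus stands for 1 guide, and guides cannot be told apart from cultures. The sources used here do not give the time after transduction, any selection or cloning, or repeat transductions, so p-values reflect how far these particular libraries differ and no more.

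Library totals lay between 10217751 and 11521209 counts, so 1 count was worth 0.0864 to 0.0982 CPM (counts scaled to a common library size after TMM, a correction for library composition). The library sgCEBPD 3 stood apart: its chi-square per degree of freedom against each other library was 47.5 to 61.8, against 3.30 to 13.8 between the other 7 libraries. It is shown apart, and each comparison is given with all 8 libraries and with the 7 others. CEBPD itself stood at 202 to 216 CPM in the controls and at 107, 209, 195 and 164 CPM in sgCEBPD 1 to 4, so its transcript was near the control level in sgCEBPD 2 and 3. The RNA level does not report small edits of the gene, so it is no check of editing. Of genes that mark the line as myeloid, PTPRC (CD45), CD33 and SPI1 were at 306 CPM or more, 99.0 CPM or more and 297 CPM or more in every library, while ANPEP (CD13) was at or near 0, at most 0.473 CPM.

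KYNU lies on chromosome 2 from 142877498 to 143055832 on the plus strand (GRCh38). Because the sgCEBPD guides target a C/EBP factor and KYNU was the pathway gene that set the groups apart, the 250 bases before each RefSeq gene start were searched on both strands for TTGCNNAA, a wide form of the C/EBP motif that includes the palindrome TTGCGCAA. Of the 9 pathway genes with such a window, KYNU was the only one with a match, in 1 of 14 windows examined, and its match starts 135 bases before the RefSeq start. The 30 bases around it are printed with the match in capitals (RefSeq, GRCh38.p14, chr2:142877518-142877547, plus strand).
KYNU: aggagcacatgTTGCTTAAatttctgacag
Among all 35116 windows, 9.05% held the wide form and 0.131% held the palindrome. A match in 1 of 14 windows is near the share of the wide form, so nothing is read from it. The RefSeq start lies downstream of the start of the GENCODE gene, so these bases are inside the KYNU gene as GENCODE draws it. A match of letters is a description and not a binding site. None of the windows of SLC36A4, DHTKD1, GPR35 and PDXK, which changed around the pathway, held a match.

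Per length of transcript, the pathway in control cells was led by the aminotransferase KYAT3 and by AFMID and HAAO, with KYNU, KMO, KYAT1 and TDO2 low. In CPM per kilobase of the principal coding transcript (GENCODE 29), the control level was highest for KYAT3 at 22.5 ± 1.20 (SD, n = 4), then AFMID at 13.6 ± 0.368 and HAAO at 10.3 ± 0.443. QPRT followed at 1.79 ± 0.276. The principal coding transcripts of KYNU run from 1576 to 15316 bases, and its level was 0.766 ± 0.313 with the shortest and 0.0788 with the longest, so its place against KMO (0.295 ± 0.0888) and KYAT1 (0.133) depends on the transcript used. TDO2 was lowest at 0.0262. The ranges of KYAT3, AFMID, HAAO and QPRT over the 4 controls did not overlap each other on this scale.

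KYNU was higher in sgCEBPD 1, 2 and 4 than in any control. It had 1.05, 0.581, 1.54 and 1.65 CPM in sgControl 1 to 4, which rests on 12, 6, 17 and 18 counts. In sgCEBPD 1, 2 and 4 it had 2.99, 5.01 and 2.94 CPM, from 32, 53 and 34 counts, and in sgCEBPD 3 it had 1.87 CPM, from 19 counts. All 4 sgCEBPD libraries lay above all 4 controls, but sgCEBPD 3 only just: its 95% exact Poisson interval, 1.12 to 2.92 CPM, held the levels of sgControl 3 and 4. The interval of sgCEBPD 2, 3.76 to 6.56 CPM, lay above the intervals of all 4 controls, of which the highest bound was 2.61 CPM. Those of sgCEBPD 1 (2.05 to 4.23 CPM) and sgCEBPD 4 (2.03 to 4.10 CPM) overlapped the intervals of sgControl 3 and 4. These intervals cover counting error only.

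The KYNU means were 1.21 ± 0.493 CPM in sgControl and 3.20 ± 1.31 CPM in sgCEBPD (SD, n = 4 each), a fold of 2.65. With sgCEBPD 3 left out the sgCEBPD mean was 3.65 ± 1.18 CPM (SD, n = 3), a fold of 3.02. The fitted log2 fold changes were 1.40 (SE 0.39) and 1.58 (SE 0.34). KYNU did not follow the CEBPD transcript across guides: sgCEBPD 2, with CEBPD at 209 CPM, had the highest KYNU, and sgCEBPD 1, with CEBPD at 107 CPM, had a KYNU level near that of sgCEBPD 4. In bulk RNA, more cells that express a gene and more RNA of it per cell cannot be told apart.

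**Figure D1:**
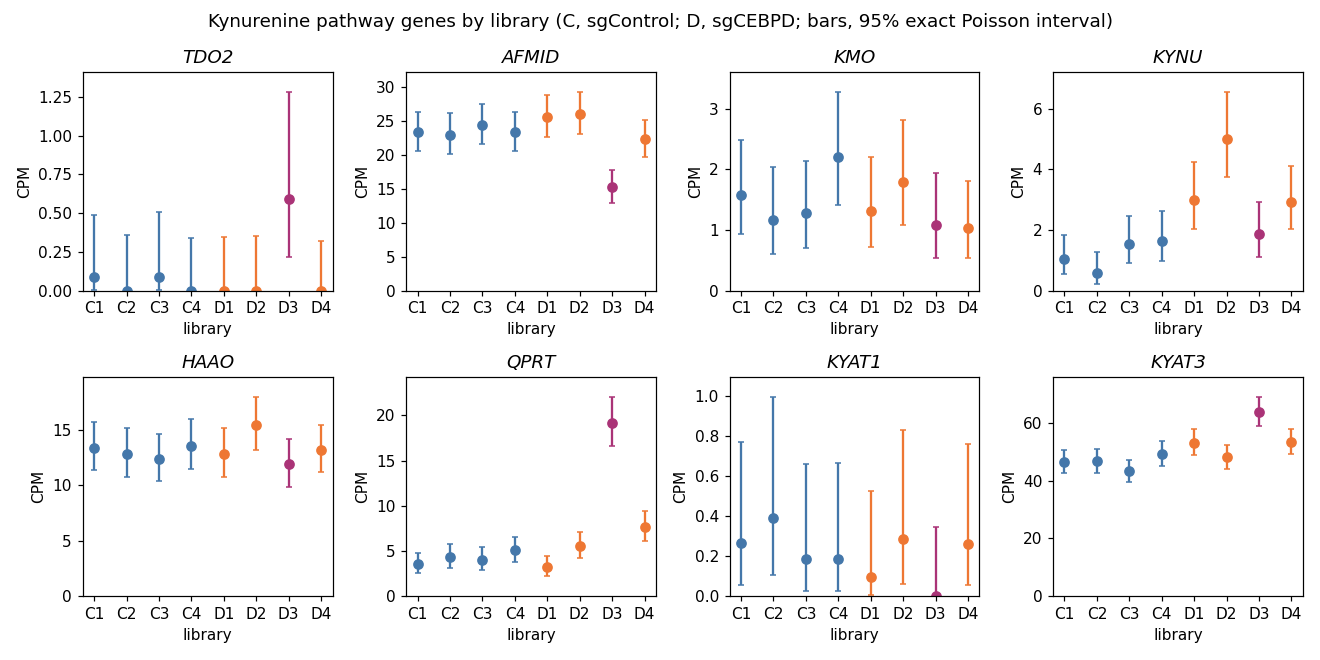
CPM (y axis, linear, from 0) of the 8 pathway genes with a row, in each library (x axis; C1 to C4 are sgControl 1 to 4, D1 to D4 are sgCEBPD 1 to 4). Points are the level in a library and bars the 95% exact Poisson interval of its count. KYNU is above the controls in D1, D2 and D4, QPRT is highest in D3 at 19.2 CPM, and AFMID is lowest in D3 at 15.2 CPM.

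KMO (chromosome 1, 241532134 to 241595642, plus strand), the flavoprotein that hydroxylates kynurenine, did not separate the groups. It had 1.57, 1.16, 1.27 and 2.20 CPM in sgControl 1 to 4 and 1.31, 1.80, 1.08 and 1.04 CPM in sgCEBPD 1 to 4. The groups overlapped, with a log2 fold change of -0.25 (SE 0.28) over 8 libraries. KMO shares 1691 exon bases, 28.4% of its annotated exons, with OPN3 on the opposite strand, so without a stated strand setting reads of the pair cannot be told apart. OPN3 stood at 6.11 to 8.81 CPM in the controls and 7.17 to 11.7 CPM in sgCEBPD.

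Within a library, KYNU stood at 0.500 to 1.21 times the KMO level in the controls. In sgCEBPD 1, 2 and 4 this ratio of CPM was 2.29 to 2.83, and in sgCEBPD 3 it was 1.73. The ratio did not overlap between the groups, with sgCEBPD 3 nearest to the controls. As a ratio of 2 low counts it carries the counting error of both.

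QPRT (chromosome 16, 29679008 to 29698699, plus strand) makes nicotinate mononucleotide from quinolinate, the step that joins the pathway to NAD. It had 3.50, 4.26, 4.00 and 5.05 CPM in sgControl 1 to 4. In sgCEBPD 1, 2 and 4 it had 3.18, 5.49 and 7.60 CPM, so 1 library was below the controls and the other two were above them. In sgCEBPD 3 it had 19.2 CPM, from 195 counts, which was 456% of the control mean and 3.53 times the mean of the other sgCEBPD libraries. The log2 fold change was 1.07 (SE 0.50) over 8 libraries and 0.37 (SE 0.27) without sgCEBPD 3, and the groups overlapped in both comparisons. In GENCODE 29 a second coding gene on the same strand, AC009086.2, shares 15.7% of the exon bases of QPRT, and it had no row in the table.

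HAAO (chromosome 2, 42767089 to 42792593, minus strand), the dioxygenase that feeds QPRT, was the pathway gene with the smallest difference over 8 libraries. It had 13.4, 12.8, 12.4 and 13.6 CPM in sgControl 1 to 4 and 12.8, 15.4, 11.9 and 13.2 CPM in sgCEBPD 1 to 4. The log2 fold change was 0.03 (SE 0.11) over 8 libraries, and it was negative (-0.04) without sgCEBPD 2. The HAAO and QPRT levels parted in sgCEBPD 3: QPRT was 1.61 times the HAAO level there, against 0.261 to 0.372 times in the controls and 0.248 to 0.575 times in the other sgCEBPD libraries.

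AFMID (chromosome 17, 78187317 to 78207701, plus strand), the formamidase that yields kynurenine, varied little outside sgCEBPD 3. It had 23.3, 23.0, 24.4 and 23.3 CPM in sgControl 1 to 4, a coefficient of variation of 2.71%, and 25.5, 26.0 and 22.3 CPM in sgCEBPD 1, 2 and 4. In sgCEBPD 3 it had 15.2 CPM, 64.8% of the control mean. Its log2 fold change was -0.08 (SE 0.16) with that library and 0.07 (SE 0.08) without it, so the sign turned on 1 library.

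KYAT3 (chromosome 1, 88935773 to 88992953, minus strand), a kynurenine aminotransferase that also acts on cysteine conjugates, had 46.6, 46.8, 43.3 and 49.4 CPM in sgControl 1 to 4. It had 53.3, 48.2, 64.1 and 53.6 CPM in sgCEBPD 1 to 4. Of these, sgCEBPD 2 lay within the control range and the other 3 lay above it. The log2 fold change was 0.24 (SE 0.10) over 8 libraries and 0.15 (SE 0.07) without sgCEBPD 3. KYAT3 shares 469 exon bases, 20.3% of its annotated exons, with RBMXL1 on the same strand, so reads there could be given to either gene. RBMXL1 had 24.8, 22.5, 23.2 and 19.5 CPM in sgControl 1 to 4 and 22.5, 20.5, 18.1 and 26.0 CPM in sgCEBPD 1 to 4. It was lowest in sgCEBPD 3, where KYAT3 was highest, and highest in sgCEBPD 4, where KYAT3 was second, and its part in the KYAT3 level was not tested.

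TDO2 and KYAT1 were too low for a comparison. TDO2, the tryptophan dioxygenase best known from liver, had 6 counts in sgCEBPD 3 (0.589 CPM), 1 count each in sgControl 1 and sgControl 3, and 0 in the remaining 5 libraries, where a count of 0 allows a level of up to 0.259 to 0.291 CPM (3 counts). KYAT1 had at most 4 counts in a library and 0 in sgCEBPD 3, which allows up to 0.295 CPM. Neither passed the filter on low counts in either comparison.

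Of the 10 genes, 6 passed that filter and were fitted with all other genes. Over 8 libraries, 0 of the 6 passed an adjusted p of 0.05 in the quasi-likelihood test of edgeR, where 0.0795% of the 13838 genes tested did (0.00723% as higher and 0.0723% as lower). At an unadjusted p under 0.05 there were 2 of 6, KYNU and KYAT3, where 11.4% of all genes tested were. DESeq2, which called 2.11% of all genes, and limma-voom also called 0 of 6. Without sgCEBPD 3, 1 of 6 passed, KYNU, where 2.01% of 14047 genes passed in either direction and 0.705% passed as higher. That call was lost without any 1 of sgControl 1 to 4, sgCEBPD 1 or sgCEBPD 2, and was kept without sgCEBPD 4. KYNU was also the 1 tested member with no overlap between groups, in both comparisons, where 4.96% of genes lay higher without overlap over 8 libraries (9.59% in either direction) and 6.89% did without sgCEBPD 3 (14.4% in either direction). These calls come from the contrast on which KYNU was picked, and nothing is read from them. Over the 6 genes the median log2 fold change was 0.13 with 8 libraries and 0.12 with 7, beside 0.00 over all genes tested in each.

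**Figure D2:**
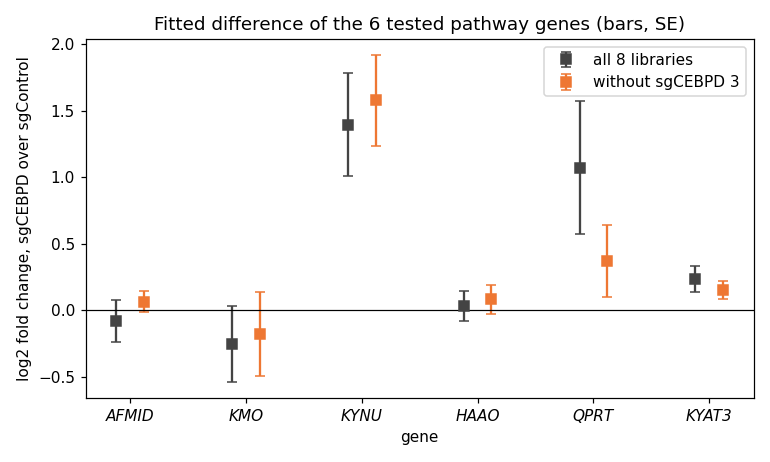
Fitted log2 fold change, sgCEBPD over sgControl (y axis), of the 6 tested pathway genes (x axis), with all 8 libraries and without sgCEBPD 3. Squares are edgeR estimates and bars their SE. KYNU has the highest value in both comparisons (1.40 and 1.58), and QPRT falls from 1.07 to 0.37 when sgCEBPD 3 is left out.

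The members thus differed in which sgCEBPD libraries they were high. KYNU was lower in sgCEBPD 3 than in the other sgCEBPD libraries, at 0.512 times their mean. QPRT (3.53 times) and KYAT3 (1.24 times) were higher there, and AFMID (0.619 times), KMO (0.782 times) and HAAO (0.860 times) were lower.

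**Figure D3:**
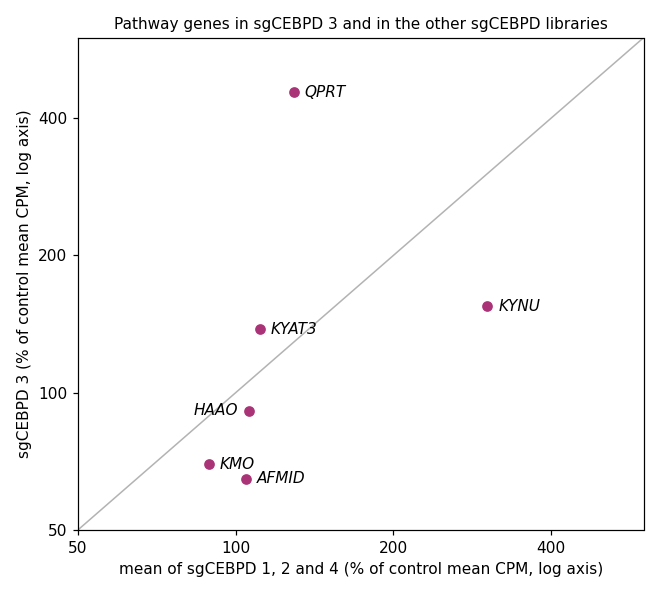
Level of each tested pathway gene as a percentage of the control mean CPM, in sgCEBPD 3 (y axis) against the mean of sgCEBPD 1, 2 and 4 (x axis), both on log axes. Points are genes and the grey line marks equal levels. KYNU lies furthest to the right, at 155% in sgCEBPD 3, and QPRT lies highest, at 456%.

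Summed levels of genes of other cell types differed between libraries, and not in the order of KYNU. The summed level of the monocyte and macrophage list (15 of 18 genes with a row) was 569 to 618 CPM in controls, 567.6 to 753 CPM in sgCEBPD 1, 2 and 4, and 1258 CPM in sgCEBPD 3. C1QA and C1QC, complement genes of macrophages, were at 0 in all 4 controls and at 1.38 and 2.85 CPM in sgCEBPD 3. CD14 was at 0 in 3 controls, against 41.0 CPM in sgCEBPD 3. CSF1R was at 538 CPM there against 387 to 503 CPM in controls. LYZ was the only gene of the list not above all controls in sgCEBPD 3, at 80.9 CPM against 74.9 to 170 CPM. Thus sgCEBPD 3, with the highest macrophage sum, had the lowest KYNU of the sgCEBPD libraries and the highest QPRT, while sgCEBPD 2, second in that sum, had the highest KYNU. In sgCEBPD 4 the sum was below all controls, with KYNU at 2.94 CPM. The dendritic list (6 of 9 with a row) summed to 17.8 to 41.5 CPM in controls, 36.8 to 163 CPM in sgCEBPD 1, 2 and 4 and 21.0 CPM in sgCEBPD 3. Of the 163 CPM in sgCEBPD 2, 150 CPM came from CLEC10A, a lectin of dendritic cells and macrophages. The interferon gamma response list (5 of 10 with a row) summed to 169 to 233 CPM in controls, 250 to 311 CPM in sgCEBPD 1, 2 and 4, and 378 CPM in sgCEBPD 3. CIITA, the activator of MHC class II genes, made up most of it in every library. It was at 209, 251 and 174 CPM in sgCEBPD 1, 2 and 4 and 198 CPM in sgCEBPD 3, against 114 to 170 CPM in controls. GBP2, an interferon-induced GTPase, was below all controls in sgCEBPD 1 and 2, at 39.2 and 45.6 CPM against 48.5 to 61.0 CPM. It was above all controls in sgCEBPD 4 and sgCEBPD 3, at 65.0 and 170 CPM. Progenitor genes (8 of 10 with a row) summed to 783 to 936, 757 to 824 and 745 CPM, and neutrophil genes (9 of 13 with a row) to 73.4 to 86.2, 73.9 to 77.3 and 85.9 CPM, in the same order. These sums hide single genes. In sgCEBPD 3, KIT was at 2.46 CPM against 23.6 to 51.9 CPM in controls, and CD34 at 7.86 against 13.4 to 104 CPM. FLT3 and MYB were also below all controls there. GATA2 (132 against 79.8 to 90.2 CPM), MEIS1 and CRHBP were above all controls, and HOXA9 was inside the control range. For S100A8 of the neutrophil list, controls had 0.525 to 2.02 CPM and sgCEBPD 3 had 0.0982 CPM. In sgCEBPD 1, 2 and 4 it had 7.76, 11.6 and 5.01 CPM. S100A9 had 0.612 to 1.56 CPM in controls, 4.30, 8.70 and 2.59 CPM in those libraries, and 1.08 CPM in sgCEBPD 3. Within sgCEBPD both ranked as KYNU did. Without sgCEBPD 3, 2 of the 6 tested neutrophil genes had a positive log2 fold change and 4 a negative one. The lymphoid list (4 of 7 with a row) summed to at most 8.72 CPM outside sgCEBPD 3, which had 57.3 CPM, 52.7 of it from CD3D. The part of these markers in the KYNU, QPRT, AFMID and KYAT3 levels was not tested.

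The genes whose levels ran closest to KYNU were sought over the 7 libraries without sgCEBPD 3, among 12204 genes with a mean of at least 2 CPM. Of the 5 closest, 4 are given: CLIC4, an intracellular chloride channel protein (Pearson r = 0.99 of log2 CPM), ATP13A1, an ATPase of the endoplasmic reticulum (0.99), USF1, a transcription factor (0.98), and DPP3, a dipeptidyl peptidase (0.98). The libraries share their groups, so genes that differ between the groups correlate, and these are among the highest of 12204 values over 7 points. With sgCEBPD 3 included, r was at most 0.74 for each of the 5 closest genes, and as low as 0.40. CLIC4 had 95.9 to 114 CPM in controls, 128, 147 and 131 CPM in sgCEBPD 1, 2 and 4, and 217 CPM in sgCEBPD 3, where KYNU was lower. None of the other pathway genes came near: their r with KYNU over 7 libraries was 0.59 for HAAO, 0.58 for AFMID, 0.51 for KYAT3, 0.39 for QPRT and 0.16 for KMO.

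Around the pathway, 60 genes of tryptophan supply, competing uses, later breakdown, NAD metabolism, kynurenine sensing, cofactors and control of IDO1 were examined as 8 lists. Of these, 52 had a row and 44 were tested. Over 8 libraries, edgeR's test called 0 of 44 (14 at an unadjusted p under 0.05, beside 11.4% of all genes). DESeq2 called 5 of 44, beside 2.11% of all genes, and limma-voom called 0. Without sgCEBPD 3 it called 4 of 44, with 2 higher and 2 lower, beside 2.01% of all genes, and 8 lay higher and 4 lower without overlap, beside 6.89% and 7.5%. DESeq2 called 9 of 44 there, beside 4.24% of all genes. The median log2 fold change of the 44 was 0.11 with 8 libraries and 0.12 with 7, beside 0.00 over all genes. Over 8 libraries, 8 of the 44 lay higher and 2 lower without overlap, beside 4.96% and 4.62% of all genes.

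SLC36A4, a transporter of tryptophan and proline, fell without sgCEBPD 3. It had 38.5, 34.6, 37.0 and 39.8 CPM in sgControl 1 to 4, 24.9, 29.04 and 23.1 CPM in sgCEBPD 1, 2 and 4, and 18.0 CPM in sgCEBPD 3. All sgCEBPD libraries were below all controls, the library left out included. On the log2 scale the difference was -0.55 (SE 0.09, edgeR adjusted p = 0.0164, lower in 3 of 3 libraries, range 0.000274 to 0.0643 over its alternatives). Over 8 libraries it was -0.66, with an adjusted p of 0.181 in edgeR and 0.00294 in DESeq2.

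GPR35, a receptor for which kynurenic acid is a known ligand, rose without sgCEBPD 3. It had 15.7, 16.3, 10.6 and 13.9 CPM in sgControl 1 to 4, 24.0, 25.9 and 20.8 CPM in sgCEBPD 1, 2 and 4, and 65.9 CPM in sgCEBPD 3. The groups did not overlap and sgCEBPD 3 was far above the rest. On the log2 scale the difference was 0.74 (SE 0.14, edgeR adjusted p = 0.0314, higher in 3 of 3 libraries, range 0.00113 to 0.103 over its alternatives). Over 8 libraries it was 1.27, with an adjusted p of 0.308 in edgeR and 0.0376 in DESeq2.

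DHTKD1, a subunit of the mitochondrial complex that breaks down 2-oxoadipate from lysine and tryptophan, rose without sgCEBPD 3. It had 43.8, 54.1, 50.6 and 47.7 CPM in sgControl 1 to 4, 72.6, 93.9 and 68.0 CPM in sgCEBPD 1, 2 and 4, and 153 CPM in sgCEBPD 3. Every sgCEBPD library was above every control. The difference in log2 was 0.67 (SE 0.12, edgeR adjusted p = 0.0288, higher in 3 of 3 libraries, range 1.05e-05 to 0.0852 over its alternatives). Over 8 libraries it was 0.98, with an adjusted p of 0.263 in edgeR and 0.0107 in DESeq2. The other genes of later breakdown that were tested, GOT2 and GCDH, did not pass.

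PDXK phosphorylates vitamin B6 to the cofactor that KYNU and the aminotransferases need. It had 197, 216, 176 and 196 CPM in sgControl 1 to 4 and 154, 160 and 158 CPM in sgCEBPD 1, 2 and 4, which were below all controls. In sgCEBPD 3 it had 197 CPM, inside the control range. It fell without sgCEBPD 3, with a log2 difference of -0.32 (SE 0.06; edgeR adjusted p = 0.0346; lower in 3 of 3 libraries, range 0.00117 to 0.113 over its alternatives), and over 8 libraries the log2 fold change was -0.23 with an adjusted p of 0.434 in edgeR. The call of these 4 genes depended on single libraries: of the genes around the pathway, 0 were called without sgControl 1, 1 without sgControl 4 or sgCEBPD 1, 2 without sgCEBPD 2, 3 without sgControl 3 or sgCEBPD 4, and 4 without sgControl 2.

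In edgeR no other gene of the lists passed in either comparison, while DESeq2 called some of them. Of the tryptophan transporters, 5 were tested, and edgeR called SLC36A4 without sgCEBPD 3. DESeq2 also called SLC7A5 in both comparisons and its heavy chain SLC3A2 without sgCEBPD 3 (adjusted p = 0.0264). SLC7A5, the light chain of the main tryptophan carrier and named after its values were seen, stood at 496 to 590 CPM in controls and 614 to 705 CPM in sgCEBPD, without overlap, with an adjusted p of 0.265 in edgeR and 0.0236 in DESeq2 over 8 libraries. WARS1, which charges the tryptophan tRNA and is induced by interferon gamma, had 71.2 to 84.8 CPM in controls, 91.7, 117 and 94.4 CPM in sgCEBPD 1, 2 and 4, and 207 CPM in sgCEBPD 3 (adjusted p = 0.369 with 8 libraries and 0.0779 with 7 in edgeR, and 0.00648 with 7 in DESeq2). WARS2, its mitochondrial counterpart, had means of 23.8 CPM in controls and 22.8 CPM in sgCEBPD.

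Of 8 tested NAD synthesis genes, none passed in edgeR or DESeq2 in either comparison, and 4 were positive and 4 negative over 8 libraries. NADK, which makes NADP from NAD, had 43.0 CPM in sgCEBPD 3 against 132 to 150 CPM in the other 7 libraries. NADSYN1, the NAD synthetase downstream of QPRT, had 118 CPM in sgCEBPD 3 and 135 to 153 CPM elsewhere. Of the genes that use NAD, CD38 had 51.9 to 67.0 CPM in controls and 20.9 to 44.5 CPM in sgCEBPD, without overlap (-0.83 in log2 with an SE of 0.22, adjusted p = 0.272 in edgeR and 0.0292 in DESeq2 with 8 libraries, and 0.240 and 0.00784 without sgCEBPD 3), and PARP1 had means of 623 and 619 CPM.

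Of the 10 listed inducers and modulators of IDO1, 9 were tested. They were genes of the interferon gamma pathway that controls IDO1, with BIN1 and PTGS2 as other modulators. Over 8 libraries, 4 of the 9 lay higher in sgCEBPD without overlap, beside 4.96% of all genes, and none passed in edgeR or DESeq2 over 8 libraries. These were IFNGR1, JAK2, IRF1 and IRF8, of which the first 3 were named after their values were seen. IRF8, a transcription factor of monocytes and dendritic cells, had 280 to 344 CPM in controls and 356 to 450 CPM in sgCEBPD (adjusted p = 0.352 in edgeR). Without sgCEBPD 3 its adjusted p was 0.116 in edgeR, 0.00642 in DESeq2 and 0.0341 in edgeR with a block on guide number. IRF1 had 33.8 to 43.5 CPM in controls and 44.1 to 57.3 CPM in sgCEBPD (adjusted p = 0.281 in edgeR, and 0.0486 without sgCEBPD 3 with that block, against 0.119 with no block). JAK1 had means of 172 and 173 CPM.

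Genes of kynurenine sensing by the aryl hydrocarbon receptor were mostly furthest from the controls in sgCEBPD 3. That library stood apart over all genes, with a chi-square per degree of freedom of 47.5 to 61.8 against each other library. The share of all genes furthest out there was not computed, so nothing particular to these genes is read from it. AHR itself had 12.3 to 14.4 CPM in controls, 16.7, 20.2 and 12.2 CPM in sgCEBPD 1, 2 and 4, and 47.7 CPM in sgCEBPD 3. CYP1B1, a classic target of the receptor, had 19.2 to 24.6 CPM in controls, 18.4, 27.5 and 29.5 CPM in sgCEBPD 1, 2 and 4, and 229 CPM in sgCEBPD 3. CYP1A1, another target, had 0.0874 to 0.643 CPM in controls, 0.936, 0.473 and 0.777 CPM in sgCEBPD 1, 2 and 4, and 7.86 CPM in sgCEBPD 3. TIPARP had 21.4 to 27.4 CPM in controls, 25.9, 28.4 and 23.6 CPM in sgCEBPD 1, 2 and 4, and 38.9 CPM in sgCEBPD 3. AHRR, the repressor of the receptor and also a target of it, had 10.3 CPM in sgCEBPD 3, inside its range of 7.48 to 11.6 CPM in the other libraries. NQO1, a further target, had 2.95 CPM there, below the 3.82 to 6.22 CPM of the others. With 1 library this has no replicate check. CYP1A1 did not pass the filter on low counts in either comparison and was not tested. None of AHR, CYP1B1 and TIPARP passed in edgeR or DESeq2 in either comparison. These genes were named after their values were seen.

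**Figure D4:**
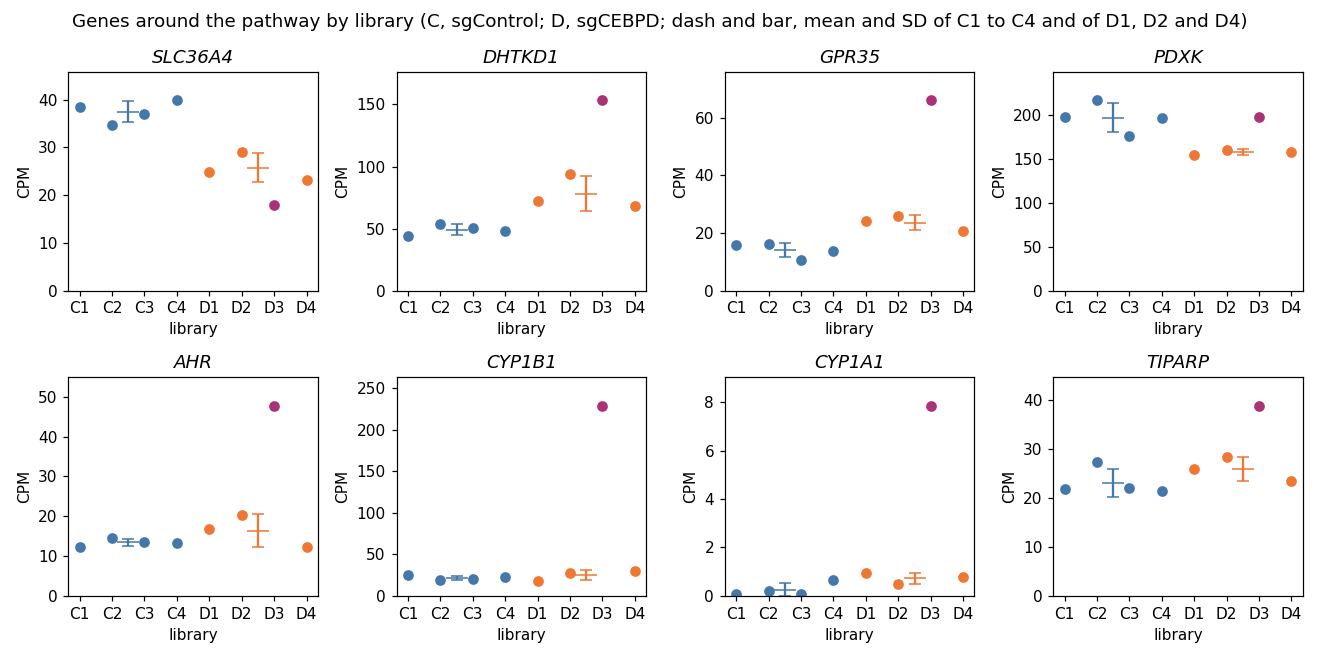
CPM (y axis, linear, from 0) of 8 genes around the pathway in each library (x axis; C1 to C4 are sgControl 1 to 4, D1 to D4 are sgCEBPD 1 to 4). Points are libraries, and dashes with bars are the mean and SD of C1 to C4 and of D1, D2 and D4. SLC36A4 is below the controls in every sgCEBPD library, and CYP1B1 reaches 229 CPM in D3 alone.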

How the data were processed

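Polyadenylated RNA of OCI-AML5 cells was sequenced in 8 libraries. The authors deposited 1 table of raw counts per gene. The submitters' processing notes name hg38 and the tools HISAT2, FastQC and DESeq2. How reads were assigned to genes, with which annotation and strand setting, is not given in the sources used here. The lowest row total was 4 counts. Columns were matched to libraries by library name. Library totals were 10217751 to 11521209 counts.

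Counts of all genes were filtered by filterByExpr, scaled by TMM and tested in R 4.3.3 with edgeR 4.0.16 (robust quasi-likelihood, group as the only term, Benjamini-Hochberg adjustment over all genes tested, threshold 0.05), with all 8 libraries and without sgCEBPD 3. SEs were derived from the fold change and its F statistic. Alternatives were DESeq2 1.42.0, limma-voom (limma 3.58.1), RLE size factors, library totals, all rows kept, only genes averaging 5 CPM or more, the guide number as a block, and each library left out. Functions were tested on simulated counts. Intervals are 95% exact Poisson.

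The members and all gene lists were chosen with earlier results of these data known. Named genes are all members, the called genes of each list around the pathway or else its 2 most abundant, and the 5 genes most correlated with KYNU over 7 libraries (log2 CPM, prior count 2), of which 1 is not reported here. Positions and lengths are from GENCODE 29 by symbol, and the start windows are from RefSeq.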

Additional observations from a re-analysis of the deposited data

Results flagged for a closer look

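In 40 groups of 4 values (pathway genes and named genes around the pathway, sgControl and sgCEBPD each), 4 held a library far from the other three, where chance gives about 1 in 20, or 2. In all 4 the library was sgCEBPD 3. That library had already been set apart and the groups share the same libraries, so nothing is read from 4 against 2. TDO2 was at 0.5895 CPM there and at 0 in sgCEBPD 1, 2 and 4. Beside values of 0 any count sets the flag, so the rate of 1 in 20 does not hold for TDO2. GPR35 was at 65.93 CPM against 20.8 to 25.9 CPM, PDXK at 197.5 CPM against 154 to 160 CPM, and NADK at 43.03 CPM against 132 to 145 CPM. QPRT, AFMID and KYAT3 were also furthest out in that library but did not reach the limit for 4 values.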

How the results depend on the processing

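KYNU kept its direction in every alternative that tested it, with a log2 fold change of 1.099 to 1.58 over 8 libraries and 1.29 to 1.77 without sgCEBPD 3, but its place past the threshold did not hold. The number of pathway genes called without sgCEBPD 3 was 1, and it was 0 when only genes of at least 5 CPM were kept (KYNU was then not tested), 0 with a replicate block on guide number, and 0 to 1 when each library was left out. Over 8 libraries it was 0 to 1 when each library was left out, with 1 only without sgCEBPD 3. Of all genes, 11 were called over 8 libraries, against 292 with DESeq2, 20 with no filter, 1 with the block, and 0 (without sgCEBPD 2; 1345 at an unadjusted p under 0.05) to 283 (without sgCEBPD 3) when each library was left out. The 283 called without sgCEBPD 3 became 596 with DESeq2 and 66 to 312 on leaving out each library. Genes around the pathway numbered 0 over 8 libraries, 5 with DESeq2 and 0 to 4 on leaving out each library, and 4 without sgCEBPD 3, where DESeq2 gave 9, the block 7, and leaving out each library 0 to 4. The guide numbers did not pair the samples: deviations of same-numbered libraries correlated at 0.0289, 0.0563, -0.0812 and -0.0419, and 1 of 4 numbers correlated best with its own.

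Signs turned among the named genes as follows. Leaving out each library over 8 libraries, the log2 fold change ran from -0.0431 to 0.0845 for HAAO, -0.161 to 0.0651 for AFMID, -0.0215 to 0.0314 for JAK1, -0.0521 to 0.0303 for PARP1 and -0.171 to 0.0217 for WARS2. Without sgCEBPD 3 it ran from -0.403 to 0.0401 for KMO, -0.0139 to 0.0668 for PARP1 and -0.0913 to 0.0839 for WARS2. JAK1 was at -0.0148 over 8 libraries with library totals, and WARS2 at -0.0068 without sgCEBPD 3 with the block. The cause was not tested. KYNU rests on 6 to 53 counts in a library, and TDO2 and KYAT1 were too low to compare at this depth.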
